A study of Homo sapiens with 52 samples.

Results

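The mRNA levels of HEK293T cells that lack MCTS1 were compared with those of wild-type cells. HEK293T is a transformed human embryonic kidney cell line. The comparison used 6 RNA-seq libraries, 4 from MCTS1 knockout (KO) cells and 2 from wild-type (WT) cells, of 52 samples in the series, 42 of which have a column of counts. The KO libraries came from 2 KO lines, numbered #1 and #2, with 2 libraries each, and each line was treated as 1 clone. No other genotype or treatment is given for these 6 libraries. The labels do not say how the clones were made, or whether the replicates were separate cultures, so the p-values measure the spread between libraries, which may be technical. Libraries were chosen by their labels, and transcripts that differed from WT in the same direction in each clone were given priority.

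MCTS1 and DENR form a complex that binds the small (40S) ribosomal subunit, and eIF2D joins the domains of both in a single protein. The complex is known for removing leftover tRNA and mRNA from 40S subunits after termination and for letting ribosomes start again downstream of short upstream open reading frames. Polyadenylated RNA-seq measures how much mRNA is present, not how it is translated, so these libraries describe the mRNA on which those ribosomes act.

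The table holds 226882 transcript identifiers, and 0 of them matched the available gene name tables, which list genes and not transcripts. The files do not pair the identifiers with gene names, so the level of the MCTS1 mRNA, gene groups and cell type markers were not checked here. Library totals were 150951436 and 301214608 counts for clone #1, 82864959 and 89789500 for clone #2, and 79851240 and 87469529 for WT. A read may be counted for several transcripts, and transcripts whose deviations between replicates correlated above 0.95 were placed in a read-sharing group. In bulk RNA, a change in the number of cells that carry an mRNA and a change in its amount per cell cannot be told apart. Levels are given in CPM, counts scaled to the library total with TMM, edgeR's correction for library composition, except where library totals alone are named.

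Each clone differed from WT in many mRNAs, and the clones also differed from each other. In clone #1, 27071 transcripts were higher and 28624 lower than in WT, which is 42.2% of the 131951 tested (edgeR quasi-likelihood test, Benjamini-Hochberg adjusted p under 0.05). In clone #2, 9749 were higher and 9916 lower, or 14.9%. This total of 19665 was 12841 without WT library 2, 12228 without clone #2 library 1 and 11974 without clone #2 library 2. Clone #1 set against clone #2 directly gave 60458 transcripts, or 45.8%. The mean of both clones gave 14980 higher and 17848 lower, or 24.9%, and this total of 32828 was 19374 without WT library 2. That test leaves the spread between clones out of its error. Clone #1 also had the deepest libraries. With all 6 libraries thinned to the smallest total, an alternative chosen after seeing the data, the calls numbered 49104 in clone #1 and 18963 in clone #2.

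Distances between libraries gave the same order. Over 68103 transcripts averaging at least 2 CPM, the root mean square log2 difference was 0.354 to 0.363 between clone #1 and clone #2 libraries. It was 0.326 to 0.348 between clone #1 and WT, and 0.204 to 0.206 between clone #2 and WT. Replicates lay closer, at 0.0949 in clone #1, 0.105 in clone #2 and 0.112 in WT.

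**Figure D1:**
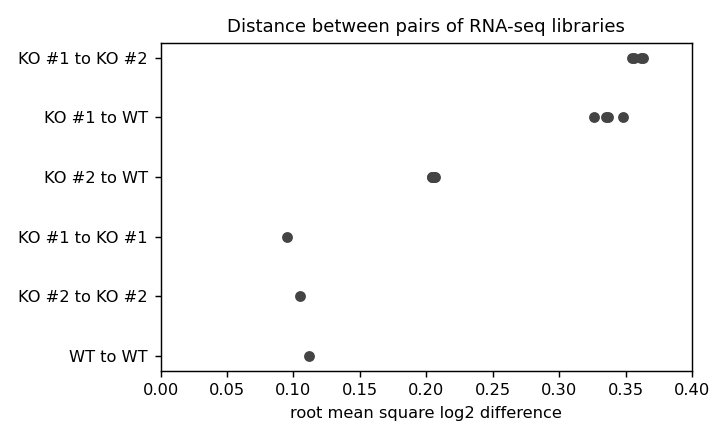
Root mean square log2 difference (x axis) between each pair of RNA-seq libraries, over transcripts averaging at least 2 CPM; each point is 1 pair. Pairs across clones (0.354 to 0.363) lie farther apart than pairs of clone #2 and WT (0.204 to 0.206), and the replicate pairs lie lowest.

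7724 transcripts differed from WT in the same direction in each clone. Of these, 3415 were higher in both clones, which is 2.59% of the transcripts tested, and 4309 were lower in both, which is 3.27%. A further 3920 were called in each clone in opposite directions: 1567 were higher in clone #1 and lower in clone #2, and 2353 were lower in clone #1 and higher in clone #2. Both clones are set against the same WT libraries. The 3415 and 4309 were 2021 and 2530 without WT library 2, 2136 and 2720 without clone #2 library 1, and 2164 and 2677 without clone #2 library 2. Read sharing reduces the 3415 to 2363 groups, the largest of 25 transcripts, and the 4309 to 2872 groups, the largest of 24.

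**Figure D2:**
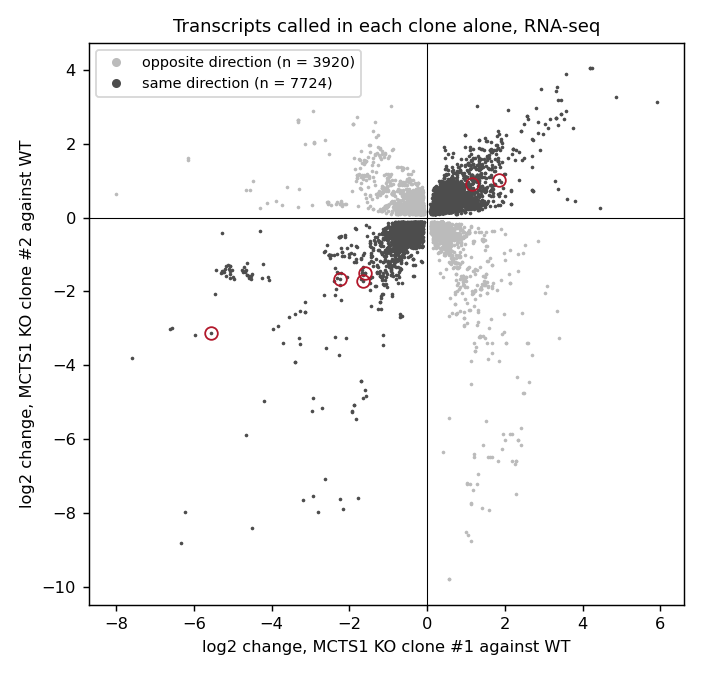
Log2 change against WT in clone #1 (x axis) and in clone #2 (y axis) for the transcripts called in each clone alone; dark points moved the same way (7724) and pale points in opposite directions (3920). Red rings mark the 6 transcripts described individually, which lie in the upper right (2) and lower left (4) quadrants.

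Most shared differences were small. The median log2 change of the transcripts higher in both clones was 0.44 in clone #1 and 0.37 in clone #2. For those lower in both it was -0.40 in clone #1 and -0.36 in clone #2, while the median over all transcripts was 0.00 in each clone. At least 1.5-fold in each clone, 592 were higher and 459 lower. At least 2-fold, 222 were higher and 180 lower, and at least 4-fold, 37 and 40. Few of the large differences were in well-measured mRNAs: among transcripts averaging at least 2 CPM, 1 was higher and 5 were lower by 2-fold or more in both clones. Many of the shared transcripts also differed between the clones. Of the 7724, 3127 (40.5%) differed between clone #1 and clone #2, where 45.8% of all transcripts tested did. Of the same 7724, 4361 (56.5%) changed more in clone #1. The 7724 were chosen for the same direction in both clones, so their share cannot be set directly against that of all.

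**Figure D3:**
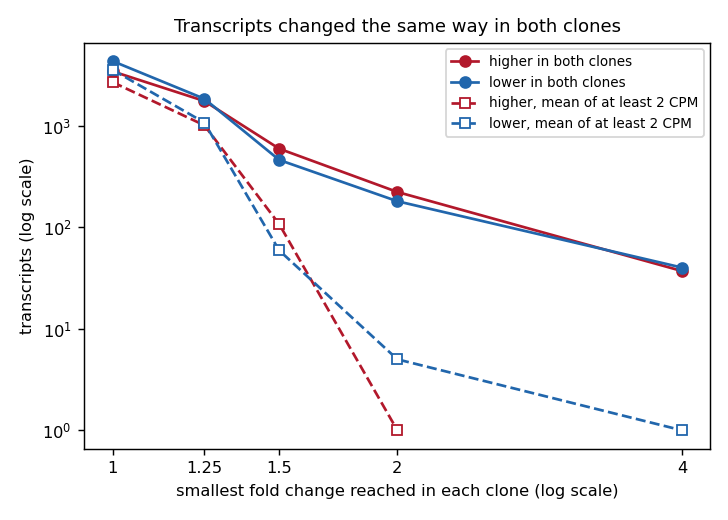
Number of transcripts (y axis, log scale) called in the same direction in both clones by the smallest fold change reached in each clone (x axis, log scale). All calls (filled) fall to 222 higher and 180 lower at 2-fold, and those averaging at least 2 CPM (open) to 1 and 5; a class of 0 is not drawn.

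Calls shared by the clones were more frequent among abundant mRNAs. Levels were taken from the siControl libraries, which are not part of the comparison, and were scaled by library totals alone, without TMM. In the lowest quartile by level (up to 0.644 CPM), 357 (1.08%) were higher in both clones and 211 (0.64%) lower. In the highest quartile (from 6.33 CPM), 1603 (4.86%) were higher and 2337 (7.08%) lower. The size ran the other way. The median of the smaller log2 change of both clones was 1.14 in the lowest quartile and 0.22 in the highest. Of the 222 transcripts higher by at least 2-fold, 214 lay in the lowest quartile. Of the 180 lower by at least 2-fold, 127 lay there and 44 in the second quartile. How small a difference could be detected at each level was not tested.

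No transcript was switched on or off in both clones, with CPM here scaled by library totals alone, without TMM. 0 transcripts stood under 0.1 CPM in all 4 KO libraries and at 1 CPM or more in both WT libraries, and 0 showed the reverse. Clone #1 alone had 50 transcripts at 1 CPM or more in both of its libraries and under 0.1 CPM in WT, and 6 of the opposite kind. Clone #2 alone had 0 and 7.

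The 2 largest rises shared by the clones were taken as the transcripts, averaging at least 2 CPM, with the largest size of change in the clone where it was smaller, 1 for each read-sharing group. The falls below were taken by the same rule, so separate KO and WT libraries in all of these transcripts follow from how they were chosen. ENST00000535275.5 stood at 3.47 and 3.31 CPM in clone #1 and 1.96 and 1.83 CPM in clone #2, against 0.993 and 0.889 CPM in WT. Every KO library was above both WT libraries, and clone #1 was above clone #2. Its log2 change was 1.86 ± 0.13 (SE, n = 2 libraries in each group) in clone #1 and 1.01 ± 0.15 in clone #2, with edgeR adjusted p of 2.5e-20 and 2e-07. The clones differed by 0.84 ± 0.11 (edgeR adjusted p = 1.3e-09). Its rise depended on the controls. The siControl libraries, from cells given a control siRNA, stood at 1.62 and 1.92 CPM. Against them the log2 change was 0.94 in clone #1 and 0.11 ± 0.13 in clone #2 (edgeR adjusted p = 0.56).

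ENST00000470071.1 stood at 3.01 and 3.4 CPM in clone #1 and 2.68 and 2.75 CPM in clone #2, against 1.42 and 1.45 CPM in WT. It is 1 of a read-sharing group of 2. The KO and WT libraries did not overlap, and both clone #1 libraries were above those of clone #2. The log2 change was 1.15 ± 0.12 in clone #1 and 0.92 ± 0.13 in clone #2 (edgeR adjusted p of 3.7e-13 and 5.4e-08). The difference between clones was 0.22 ± 0.10 (edgeR adjusted p = 0.064). Against siControl (2.31 and 2.20 CPM) it was smaller, at 0.51 in clone #1 and 0.29 in clone #2 (edgeR adjusted p of 9.7e-05 and 0.047).

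The 2 largest falls were larger than the rises. ENST00000493879.5 stood at 0.119 and 0.104 CPM in clone #1 and 0.584 and 0.665 CPM in clone #2, against 5.26 and 5.58 CPM in WT. In clone #1 these levels rest on 37 and 16 counts. Its log2 change was -5.57 ± 0.16 in clone #1 and -3.11 ± 0.15 in clone #2 (edgeR adjusted p of 3.1e-40 and 3.7e-27). The fall was deeper in clone #1 by 2.45 ± 0.24 on the log2 scale, a clone #1 minus clone #2 value of -2.45 (edgeR adjusted p = 1.1e-13). It was also present against siControl (4.32 and 4.47 CPM), at -5.25 in clone #1 and -2.79 in clone #2.

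ENST00000227507.2 stood at 1.11 and 1.09 CPM in clone #1 and 1.86 and 1.41 CPM in clone #2, against 5.50 and 4.89 CPM in WT. The KO and WT libraries did not overlap. The log2 change was -2.23 ± 0.11 in clone #1 and -1.67 ± 0.12 in clone #2 (edgeR adjusted p of 3.1e-27 and 3.1e-18), and the clones differed by -0.56 ± 0.13 (edgeR adjusted p = 0.00033). Against siControl (11.8 and 12.4 CPM) the difference was larger, at -3.44 in clone #1 and -2.87 in clone #2. This mRNA was also lower after siRNA against DENR, at 4.75 and 4.85 CPM with siRNA #1 and 7.62 and 6.99 CPM with siRNA #2, against 11.8 and 12.4 CPM with control siRNA. The DENR log2 change was -1.03 ± 0.08 over both siRNAs (edgeR adjusted p = 1.3e-15). This fall is against siControl, which stood above WT. The WT levels of 5.50 and 4.89 CPM lay just above those with siRNA #1 and below those with siRNA #2. The DENR siRNA libraries were not tested against WT.

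A stricter test counted both clones as one KO group, so that the spread between clones entered the error. The 4 KO libraries entered as separate replicates although they came from 2 clones, so the clone was not the unit of the test. 6 transcripts then passed (edgeR adjusted p 0.0098 to 0.031), which is 0.00455% of those tested, and all 6 were lower in KO cells. These 6 form 5 read-sharing groups, with log2 changes of -4.40 to -1.55. 0 transcripts were higher by this test, while 7472 were higher and 7355 lower at an unadjusted p under 0.05. DESeq2 on the same groups called 700 higher and 712 lower. The 4 transcripts described above did not pass this edgeR test, with adjusted p of 0.21 for ENST00000535275.5, 0.10 for ENST00000470071.1, 0.15 for ENST00000493879.5 and 0.081 for ENST00000227507.2, and all 4 passed it with DESeq2.

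All 6 were called lower in each clone alone, and also in each clone against siControl. 3 of them average at least 2 CPM. Of the 2 whose smaller fall was largest among these, chosen after the values were seen, the first stood at 2.53 and 2.65 CPM in clone #1 and 2.35 and 2.55 CPM in clone #2, against 7.60 and 8.51 CPM in WT. Its log2 change was -1.64 ± 0.08 in clone #1 and -1.72 ± 0.09 in clone #2, and the clones differed by 0.08 ± 0.10 (edgeR adjusted p = 0.56). The second stood at 3.13 and 3.33 CPM in clone #1 and 3.38 and 3.51 CPM in clone #2, against 9.17 and 10.4 CPM in WT. Its log2 change was -1.61 ± 0.07 in clone #1 and -1.50 ± 0.08 in clone #2, with a difference of -0.10 ± 0.09 (edgeR adjusted p = 0.36). Passing the one-group test requires a small spread between clones, so the closeness of the 4 KO libraries in these transcripts follows from how they were chosen. The pair fell in separate read-sharing groups but moved alike in other libraries. With siRNA #1 against DENR their log2 changes were -0.56 and -0.58, and with siRNA #2 -0.08 and -0.09. A read may be counted for both, so they may not be 2 independent observations.

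**Figure D4:**
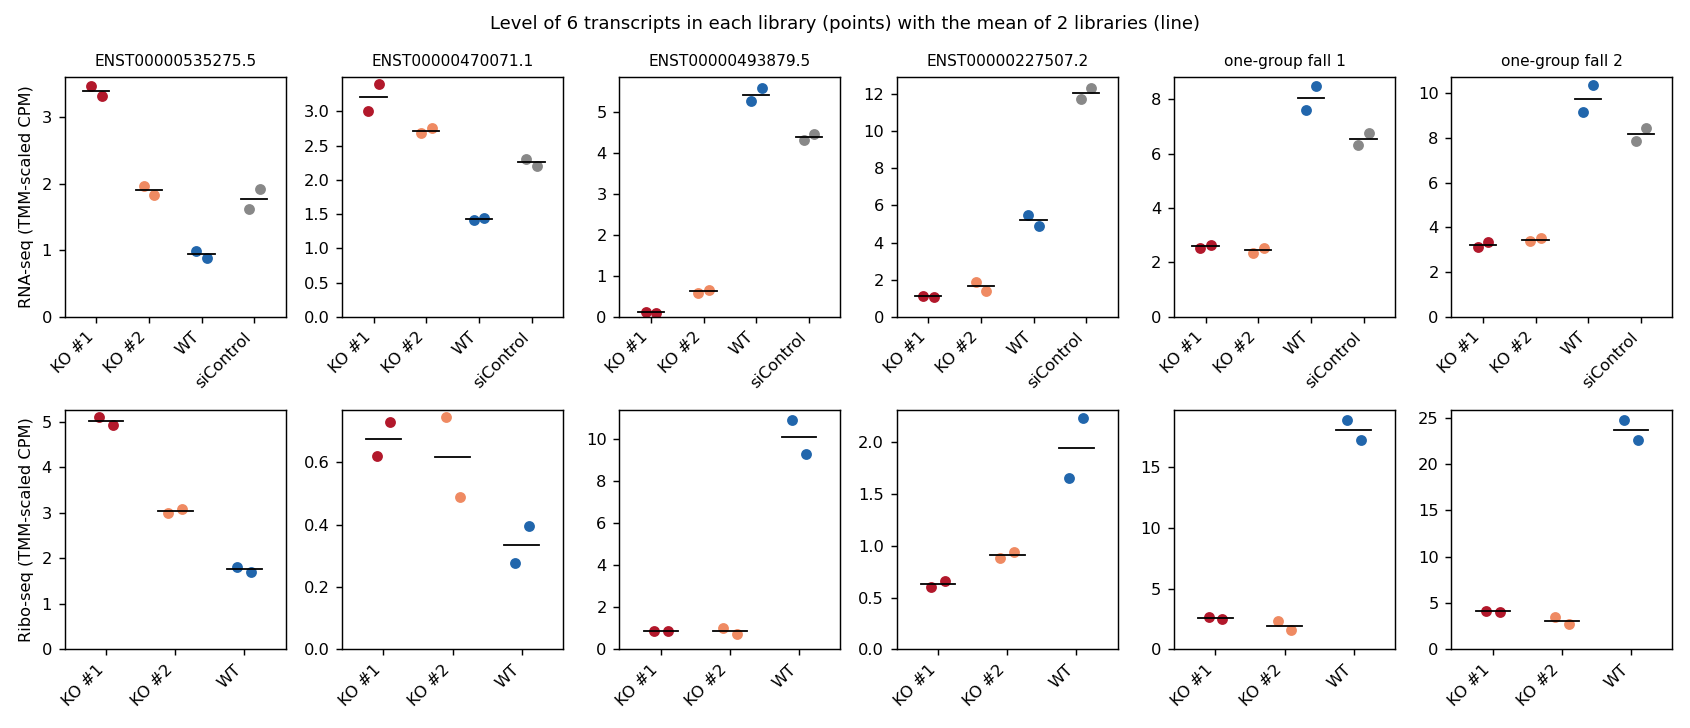
TMM-scaled CPM (y axis) of 6 transcripts in RNA-seq (top) and Ribo-seq (bottom) libraries; points are libraries and lines the mean of 2. The last panels, marked one-group fall, are the pair described without an identifier, with RNA-seq means of 2.59 and 3.23 CPM in clone #1 and 2.45 and 3.44 CPM in clone #2, while in RNA-seq ENST00000535275.5, ENST00000493879.5 and ENST00000227507.2 differ between clones by the test.

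Exchanging the controls tested how far the shared calls rest on the WT libraries. The siControl libraries took the place of WT, with the same KO libraries, in an alternative chosen after seeing the data. siControl cells differ from WT also by transfection. Of the 3415 transcripts higher in both clones, 1463 (42.8%) were called higher in both against siControl as well, where 10.2% of all transcripts tested were called so, and 201 were called lower in both. Of 4300 tested among those lower in both, 2022 (47%) were called lower in both, against 11.4% of all, and 270 higher in both. Of those lower by at least 2-fold, 123 of 171 were called lower in both clones, and all 171 had a negative sign in both. Of those higher by at least 2-fold, 125 of 222 were called and 198 had a positive sign in both. The KO libraries are shared between these fits, so the second is not independent of the first.

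Ribo-seq of the same genotypes, which counts mRNA fragments protected by ribosomes, used other libraries. It moved in the same direction for most of the shared transcripts. Of 3216 transcripts higher in both clones in RNA-seq and tested in Ribo-seq, 947 (29.4%) were higher in KO Ribo-seq and 20 (0.622%) lower (edgeR, mean of both clones), where 2.68% of all 115412 tested were higher and 3.43% lower. Their median Ribo-seq log2 change was 0.29. Of 4072 lower in both clones, 1229 (30.2%) were lower in Ribo-seq and 4 (0.0982%) higher, with a median of -0.30. The median over all transcripts was -0.01. The sign was the same in 88.8% of those higher and 92.4% of those lower, against 48.6% and 51.4% of all transcripts. Among those changed at least 2-fold in each clone, the Ribo-seq median was 1.03 for 109 tested rises and -1.41 for 73 tested falls. The Ribo-seq background rests on single libraries: its 7050 calls (6.11%) were 15401 without WT library 2, 4558 and 4402 without libraries 1 and 2 of clone #1, and 3057 and 2533 without those of clone #2.

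The named transcripts kept their RNA-seq direction in Ribo-seq, but not all passed the threshold. ENST00000493879.5 stood at 0.851 and 0.851 CPM in clone #1 and 0.984 and 0.698 CPM in clone #2 Ribo-seq, against 10.9 and 9.26 CPM in WT, a log2 change of -3.56 ± 0.13 (edgeR adjusted p = 1.1e-14). The difference between clones in Ribo-seq was 0.01 ± 0.23 on the log2 scale (edgeR adjusted p = 0.98), and its difference from that in RNA-seq was not tested. ENST00000535275.5 was higher, at 5.09 and 4.92 CPM in clone #1 and 2.99 and 3.07 CPM in clone #2 Ribo-seq, against 1.81 and 1.69 CPM in WT (log2 1.16 ± 0.14, edgeR adjusted p = 1.4e-05). In Ribo-seq, ENST00000227507.2 changed by -1.40 ± 0.20 (edgeR adjusted p = 1e-04). ENST00000470071.1 had few Ribo-seq counts and did not pass, at 0.87 ± 0.33 (edgeR adjusted p = 0.12). All 6 transcripts lower by the one-group test were also lower in Ribo-seq, with log2 changes of -4.46 to -2.73.

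TCP-seq, which counts fragments protected by ribosomal complexes, was also read for the transcripts that moved the same way in both clones, a comparison chosen after seeing the data. These libraries are shallow (1609303 to 3853825 counts), and 42679 transcripts could be tested against WT libraries 3 and 4. Of 1908 transcripts higher in both clones, 434 (22.7%) were higher in KO TCP-seq and 38 (1.99%) lower, where 8.5% of all were higher and 8.79% lower. Of 2370 lower in both, 586 (24.7%) were lower and 32 (1.35%) higher. With all 4 WT libraries the shares called in the same direction were 20.7% and 19.9%, against 5.3% and 6.06% of all 44714 tested. Against WT libraries 3 and 4, of 65 tested rises of at least 1.5-fold, 30 (46.2%) had a positive sign, against 50.5% of all, with a median log2 change of -0.09, and 10 (15.4%) were called higher. With all 4 WT libraries 41 of 67 (61.2%) had a positive sign, with a median of 0.06. In clone #1 alone, against WT libraries 3 and 4, 2 of the 65 (3.08%) were called higher, as were 3.86% of all. In clone #2 alone, against the same WT libraries, 18 (27.7%) were called higher and 5 (7.69%) lower, where 12% and 11.1% of all were so. Of 18 tested falls of that size against these libraries, 8 (44.4%) were called lower and 1 higher. In clone #1 alone 2 (11.1%) and in clone #2 alone 10 (55.6%) were called lower, where 2.91% and 11.1% of all were. With all 4 WT libraries 5 of 25 (20%) were called lower, against 6.06% of all. Against WT libraries 3 and 4, 8 of 13 rises of at least 2-fold (61.5%) were called higher, with a median of 1.69. In clone #1 alone 1 of the 13 was called higher, and in clone #2 alone 9 were. Of 5 falls of at least 2-fold, 1 was called lower and 1 higher. The labels do not say which WT libraries belong with the MCTS1 KO.

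Loss of the partner protein DENR, by 2 siRNAs against control siRNA, shares no library with the MCTS1 comparison. Without a fold cut, the shared MCTS1 transcripts were called there in the same direction more often than all transcripts were, with small changes. Opposite calls, over both siRNAs, were about as frequent as among all transcripts. Of 3378 tested transcripts higher in both MCTS1 KO clones, 808 (23.9%) were higher and 400 (11.8%) lower after siDENR, where 10.5% and 12.7% of all 131311 tested were so. Of 4304 lower in both clones, 1280 (29.7%) were lower and 402 (9.34%) higher. The median log2 changes were small, 0.08 and -0.09. Among rises of at least 2-fold in each clone, 44 of 185 (23.8%) were higher after siDENR and 1 (0.541%) lower, with a median of 0.23. Among falls of at least 2-fold, 29 of 175 (16.6%) were lower and 17 (9.71%) higher, with a median of 0.01. With siRNA #1 alone, 24 (13.7%) of these falls were lower and 43 (24.6%) higher, where 13.5% and 12.6% of all were so. With siRNA #2 alone 18 (10.3%) were lower and 10 (5.71%) higher, where 10.2% and 9.04% of all were so. The number of DENR calls, 30364 (23.1%), was 14751 without siControl library 1 and 15657 without siControl library 2. Of the other named transcripts, both rises missed the threshold after siDENR. ENST00000535275.5 changed by -0.16 ± 0.14 (edgeR adjusted p = 0.45). ENST00000470071.1 changed by -0.27 ± 0.13 (edgeR adjusted p = 0.12), and with siRNA #2 alone it was lower, at -0.63 ± 0.16 (edgeR adjusted p = 0.0021). ENST00000493879.5 was lower over both siRNAs, at -0.45 ± 0.11 (edgeR adjusted p = 0.00092), with -0.71 for siRNA #1 and -0.19 for siRNA #2 (edgeR adjusted p of 1e-05 and 0.31).

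**Figure D5:**
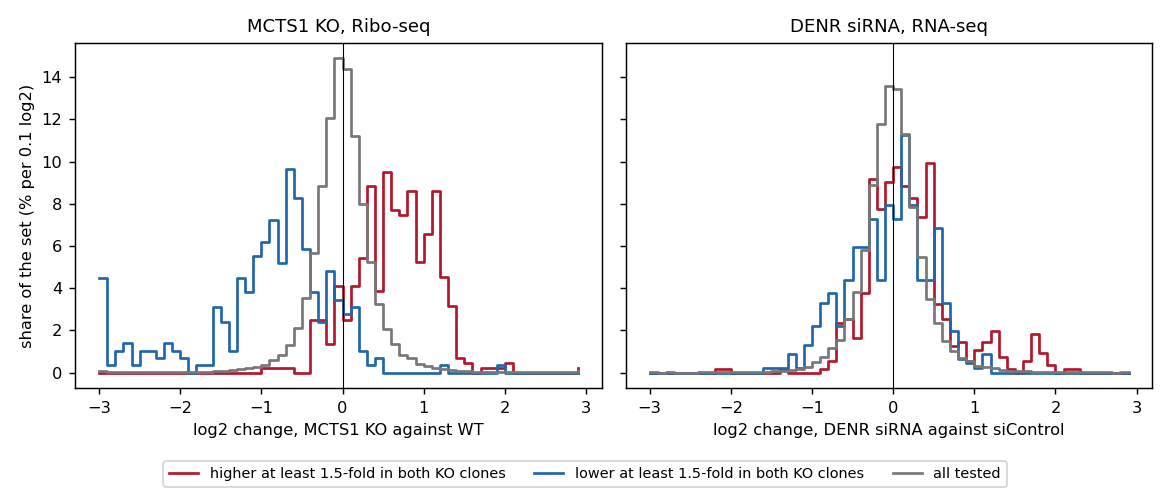
Share of transcripts (y axis, % per 0.1 log2) by log2 change in KO over WT Ribo-seq (left) and in siDENR over siControl RNA-seq (right), for transcripts changed at least 1.5-fold in both MCTS1 KO clones in RNA-seq and for all tested; the outermost steps collect all values beyond them. In Ribo-seq the sets part, with medians of 0.65 (higher) and -0.75 (lower), while after siDENR their medians are 0.13 and -0.01.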

How the data were processed

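The values are counts per transcript, as deposited by the authors in 1 table. Per the submitters' processing notes, cutadapt, STAR and featureCounts (Subread) and the builds GRCh38.p13 and hg38 were used. For versions, strand and the rule for reads that overlap several transcripts, nothing is stated there, so a read may enter several transcripts. 0 columns were without a sample.

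Counts were tested in R 4.3.3 with edgeR 4.0.16 (TMM factors, filterByExpr with a minimum count of 10, quasi-likelihood test, Benjamini-Hochberg adjusted p under 0.05), with 1 coefficient for each clone and for WT. DESeq2 1.42.0 was an alternative, and the edgeR fit of the RNA-seq comparison was tested on simulated data. Ribo-seq and DENR siRNA libraries were fitted separately in the same way.

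The transcripts named are the 2 rises and 2 falls, averaging at least 2 CPM and called in each clone in the same direction, with the largest change in the clone where it was smaller, 1 for each read-sharing group. The planned rule of 1 transcript a gene, the planned gene lists and the planned cell type markers could not be applied without gene names. The libraries, lists and tests were chosen with earlier results of these data known. Depth limits precision to counting error for low transcripts.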

Additional observations from a re-analysis of the deposited data

Results flagged for a closer look

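The clones differ under the same contrast, by a test of the difference itself. 60458 transcripts differed between clone #1 and clone #2, and 3920 were called in each clone against WT in opposite directions. ENST00000535275.5 was higher in clone #1 than in clone #2 by 0.84 on the log2 scale, ENST00000493879.5 differed by -2.45 and ENST00000227507.2 by -0.56 (clone #1 minus clone #2). In Ribo-seq the same differences were 0.72 ± 0.14 (SE, edgeR adjusted p = 0.00065), 0.01 ± 0.23 (0.98) and -0.54 ± 0.26 (0.17). Each line was treated as 1 clone, and clone and knockout effects then cannot be told apart within a line.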

How the results depend on the processing

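The calls in clone #1 (37556 to 65639) and between clones (42451 to 62613) stayed within 1.5 times their main count in all 15 alternatives. For the mean of both clones, calls were 19290 with DESeq2, 57888 with siControl in place of WT, 6 with both clones as one group and 1412 with both as one group in DESeq2. For clone #2 they were 10974 with DESeq2, 12980 with all 12 RNA-seq libraries in the fit and 51017 with siControl. Transcripts higher in both clones numbered 1674 with DESeq2, 2011 with all 12 libraries, 13577 with siControl and 0 when also required to pass as one group. Those lower in both numbered 2119, 2575, 15289 and 6 under the same alternatives. Ribo-seq gave 4229 calls with DESeq2. The cause of these moves was not tested. The alternatives with siControl, with DESeq2 as one group, with thinning and with the one-group requirement were chosen after seeing the data.

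Leaving out 1 library at a time gave 19374 to 32398 calls for the mean, 41544 to 54893 for clone #1, 11974 to 21504 for clone #2 and 45725 to 61628 between clones. Transcripts higher in both numbered 2021 to 3522 and lower in both 2530 to 4353. Ribo-seq gave 2533 to 15401 and DENR siRNA 14751 to 40741. Scaling by library totals alone made 35% of the clone #2 calls higher, against 49.6% with TMM, and 63.7% of the calls between clones, against 49.9%. With it 2927 transcripts were higher and 5035 lower in both clones.

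Same-numbered libraries did not deviate together (r of -0.097 to 0.005 between groups), so the numbers were not taken as pairs. A fit with the replicate block gave 31414 calls for the mean, 54292 for clone #1, 18453 for clone #2, 59192 between clones, 8257 in Ribo-seq and 30913 for DENR siRNA, and it lost none of the named calls. ENST00000493879.5, ENST00000227507.2 and ENST00000470071.1 were called in each clone in 15 of 15 alternatives that keep the clones apart, and ENST00000535275.5 in 14 of 15, the exception being siControl in place of WT.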

Other observations

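In TCP-seq the sign was opposite for both of the pair of transcripts that were lower with both clones as one group and are described without an identifier. The first of them fell in RNA-seq and in Ribo-seq (log2 -3.01 ± 0.11, SE, edgeR adjusted p = 1.1e-14). In TCP-seq it stood at 8.44 and 7.67 CPM in clone #1 and 3.84 and 8.99 CPM in clone #2, against 4.18, 2.97, 2.67 and 3.68 CPM in WT. The log2 change was 1.07 ± 0.33 with 4 WT libraries (edgeR adjusted p = 0.027 for the mean of both clones), on 5 to 33 counts a library. It passed in neither clone alone, with edgeR adjusted p of 0.14 in clone #1 and 0.073 in clone #2, and of 0.089 and 0.085 with WT libraries 3 and 4. The lowest KO TCP-seq library lay inside the WT range. For the second, which may share reads with the first, the TCP-seq change was 0.75 ± 0.30 and did not pass (edgeR adjusted p = 0.093). Among the transcripts described with an identifier, only ENST00000227507.2 could be tested in TCP-seq, and it kept its direction there. It changed by -2.70 ± 0.40 with 4 WT libraries (edgeR adjusted p = 1.1e-05), on 0 to 12 counts a KO library. It passed in each clone alone, with edgeR adjusted p of 0.0014 in clone #1 and 0.00014 in clone #2.

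The number of differences called with both clones as one group rests on the tool. Of the 3415 transcripts higher and 4309 lower in each clone, DESeq2 called 695 and 712 with both clones as one group, and edgeR 0 and 6.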
